A study of Mus musculus with 12 samples.

Results

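The transcripts described here are those of 43 mouse genes whose products carry a cell through mitosis, measured in skin that was regrowing its hair. The members are a fixed list of cyclins, mitotic kinases, checkpoint proteins, kinetochore proteins, kinesins, spindle and cytokinesis proteins, and the chromosome proteins Top2a and Mki67. Their 60 array probes were found through RefSeq transcript accessions, and each gene is represented by its probe with the highest mean signal. Of the 43 genes, 42 passed the background filter (detected on 3 or more of the 12 arrays) and entered fits over 16187 genes. The remaining member, Aurkb, the kinase of the chromosomal passenger complex, had a probe well above background on 2 of the 12 arrays and was not tested. Among the 42, 40 were well above background on all 12 arrays, Nuf2 on all 11 arrays with a usable spot for it, and Cenpf on 6.

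RNA came from plucked skin of 12 male mice of mixed C57Bl6/129Sv background, 1 array per mouse, all taken 12 days after the hair was plucked. The cKO mice lacked Sox4 in skin through a conditional knockout, and the WT mice were wild type. Exp 1 held 3 cKO mice (2, 5 and 6) and 3 WT mice (1, 2 and 3) aged 68 to 72 weeks. Exp 2 held 3 cKO mice (1, 3 and 4) and 3 WT mice (4, 5 and 6) aged 16 to 20 weeks, so experiment and age cannot be told apart. The sources used here do not give the Cre line that removed Sox4.

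Plucking pushes resting hair follicles into growth, and the matrix at the base of a growing follicle is among the fastest dividing tissues of adult skin. Mitosis genes are transcribed late in the cell cycle: cyclin B with Cdk1 starts mitosis, kinetochores tie chromosomes to the spindle, the checkpoint holds anaphase back until they are attached, and the anaphase-promoting complex then destroys cyclin B. Many of these genes are switched on together through CCAAT boxes, bound by NF-Y, and through the cell cycle genes homology region (CHR), bound by the MuvB core with B-Myb and Foxm1. Their summed level in a tissue is commonly used as a readout of how many cells are dividing.

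The shared motifs can be seen in the promoters of members, taken from RefSeq on build GRCm38.p6 as 250 bases before to 50 bases after each start, in the direction of the gene. Of the 43 members, 35 had an entry; the 8 without one were Ccna2, Cdc25c, Foxm1, Incenp, Aurkb, Spc24, Kif20a and Tpx2. The promoters below are those of Kif11 and Kif18b, called in a comparison that follows, and of the 4 members with an entry that had the smallest p in the averaged genotype comparison. Capitals mark each CCAAT and each TTTGAA, the core of the CHR, on either strand. They lie at chr19:37376132-37376431 (Kif11, + strand), chr11:102925075-102925374 (Kif18b, - strand), chr11:99024140-99024439 (Top2a, - strand), chrX:100625815-100626114 (Kif4, + strand), chr4:117178723-117179022 (Kif2c, - strand) and chr2:69206164-69206463 (Spc25, - strand).
Kif11: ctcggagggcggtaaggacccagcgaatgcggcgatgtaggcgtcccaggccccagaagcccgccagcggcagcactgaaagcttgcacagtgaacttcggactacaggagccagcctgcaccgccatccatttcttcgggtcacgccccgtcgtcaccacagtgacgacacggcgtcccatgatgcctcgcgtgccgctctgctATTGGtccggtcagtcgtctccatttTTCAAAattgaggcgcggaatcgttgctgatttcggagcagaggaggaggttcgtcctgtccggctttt
Kif18b: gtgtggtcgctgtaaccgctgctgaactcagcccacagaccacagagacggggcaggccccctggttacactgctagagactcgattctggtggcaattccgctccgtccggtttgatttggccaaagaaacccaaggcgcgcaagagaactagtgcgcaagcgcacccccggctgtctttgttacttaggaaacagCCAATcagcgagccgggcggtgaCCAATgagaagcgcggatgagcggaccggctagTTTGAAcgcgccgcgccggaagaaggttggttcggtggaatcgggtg
Top2a: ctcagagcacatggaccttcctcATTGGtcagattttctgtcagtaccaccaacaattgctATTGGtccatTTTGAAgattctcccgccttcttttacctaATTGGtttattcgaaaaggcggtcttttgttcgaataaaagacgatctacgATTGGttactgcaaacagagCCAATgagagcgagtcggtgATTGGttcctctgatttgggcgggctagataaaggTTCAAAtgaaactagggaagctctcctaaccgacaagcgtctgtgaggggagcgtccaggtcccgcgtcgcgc
Kif4: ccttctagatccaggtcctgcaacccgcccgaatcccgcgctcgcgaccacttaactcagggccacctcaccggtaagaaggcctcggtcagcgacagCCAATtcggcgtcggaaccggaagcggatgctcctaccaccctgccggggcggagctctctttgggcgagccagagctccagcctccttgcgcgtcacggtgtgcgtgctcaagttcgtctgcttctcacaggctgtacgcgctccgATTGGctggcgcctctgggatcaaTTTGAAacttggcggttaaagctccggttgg
Kif2c: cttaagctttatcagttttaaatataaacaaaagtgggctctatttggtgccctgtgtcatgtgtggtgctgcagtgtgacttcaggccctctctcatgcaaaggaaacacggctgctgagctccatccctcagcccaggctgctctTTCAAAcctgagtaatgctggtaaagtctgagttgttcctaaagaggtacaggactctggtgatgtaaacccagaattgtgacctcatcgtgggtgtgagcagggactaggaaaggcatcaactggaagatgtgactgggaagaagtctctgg
Spc25: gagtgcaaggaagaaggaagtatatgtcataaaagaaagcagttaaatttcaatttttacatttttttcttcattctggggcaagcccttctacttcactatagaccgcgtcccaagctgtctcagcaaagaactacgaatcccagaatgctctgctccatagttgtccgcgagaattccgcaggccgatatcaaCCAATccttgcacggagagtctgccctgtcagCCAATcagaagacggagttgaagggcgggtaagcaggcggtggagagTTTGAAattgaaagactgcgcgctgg

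Both motifs were common in the members. A CCAAT on either strand was present in 26 of the 35 member promoters (74.3%), against 37.9% of all 27025 promoters of the same length (1 per gene), and 54.3% of members held at least 2 copies, against 12.2% of all promoters. A TTTGAA on either strand was present in 28 of 35 (80%), against 18.1% of all promoters. Both motifs stood together in 23 of 35 (65.7%), against 7.12% of all promoters. Birc5, Mad2l1, Nuf2 and Nusap1 held neither in this window, which says only that these letters were not found there. Of 62 CCAAT copies, 42 began in the 100 bases before the start, whereas the median TTTGAA began 2 bases past it. In Ube2c 1 pair of CCAAT copies overlapped, and in Cdca8 1 CCAAT copy overlapped a TTTGAA. A match of letters is a description and was not tested for binding.

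All levels below are log2 processed signal minus the 75th percentile of that array, and a difference of 2 levels is a log2 difference. They are levels of a probe and are not compared between genes. Values of 3 mice are in the order 2, 5 and 6 (Exp 1 cKO), 1, 2 and 3 (Exp 1 WT), 1, 3 and 4 (Exp 2 cKO), and 4, 5 and 6 (Exp 2 WT). Errors beside group means are SD, errors beside differences are SE, and brackets give 95% intervals. Calls are at an adjusted p under 0.05 from limma, with Benjamini-Hochberg adjustment across the 16187 genes tested. Sox4 itself averaged -3.40 ± 0.69 in cKO skin and 2.14 ± 0.19 in WT skin (SD, n = 6 each), and the highest cKO level (-2.55) lay below the lowest WT level (1.90, adjusted p = 3.76e-09 by limma). In whole skin, fewer dividing cells and less of each transcript per cell cannot be told apart.

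The array of cKO mouse 5, in Exp 1, stood apart from the others. The mean level of 10 hair shaft keratins was 3.87 in this mouse, against 6.21 to 7.55 in the other 11 mice. Its median deviation from the mean of each gene was -3.04 for 12 melanocyte genes and -1.80 for 13 hair matrix genes, while the other 11 mice lay between -0.15 and 0.60 for the hair matrix list. Skeletal muscle transcripts also varied: the mean level of 22 muscle genes was -2.87 to 0.27 in Exp 1 cKO skin, -3.90 to -2.93 in Exp 1 WT skin, 4.22 to 5.44 in Exp 2 cKO skin and -1.07 to 5.30 in Exp 2 WT skin. The arrays lay on 3 slides, of which slide 1 and slide 2 held both genotypes and slide 3 held cKO mouse 3 alone. Across arrays 53.9% to 62.6% of probes were well above background, and no probe was saturated.

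Averaged over both experiments, all 42 tested mitosis genes had a lower mean in cKO skin than in WT skin, with differences between -0.66 (Spc25) and -0.004 (Anln). Of all genes tested, 57.7% were lower. The median difference of the members was -0.35, or 1.27-fold lower, beside -0.04 for all genes. No member passed the adjusted threshold (0 of 42 by limma, beside 0.389% of all genes called lower and 0.0309% higher). At an unadjusted p under 0.05, 28 of 42 members were lower, beside 8.74% of all genes, and none was higher, beside 3.40%. The levels of the 6 cKO and the 6 WT mice overlapped for all 41 members measured in every mouse, beside 1.20% of all genes whose cKO levels all lay below WT.

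The smallest adjusted p among the members was that of Tpx2, which brings Aurora A to the spindle and nucleates its microtubules. Its level in Exp 1 was 0.21, 0.01 and 0.34 in cKO mice 2, 5 and 6, against 0.73, 0.97 and 0.96 in WT mice 1, 2 and 3. In the younger mice it was 0.72, 0.92 and 0.86 in cKO mice 1, 3 and 4, against 1.26, 1.40 and 0.97 in WT mice 4, 5 and 6. The cKO levels lay below all WT levels within each experiment, and the groups overlapped only when the experiments were pooled. The averaged difference was -0.54 ± 0.10 [-0.76 to -0.32], 1.45-fold lower, with a limma adjusted p of 0.0568 that passed the threshold under 5 alternative fits.

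**Figure D1:**
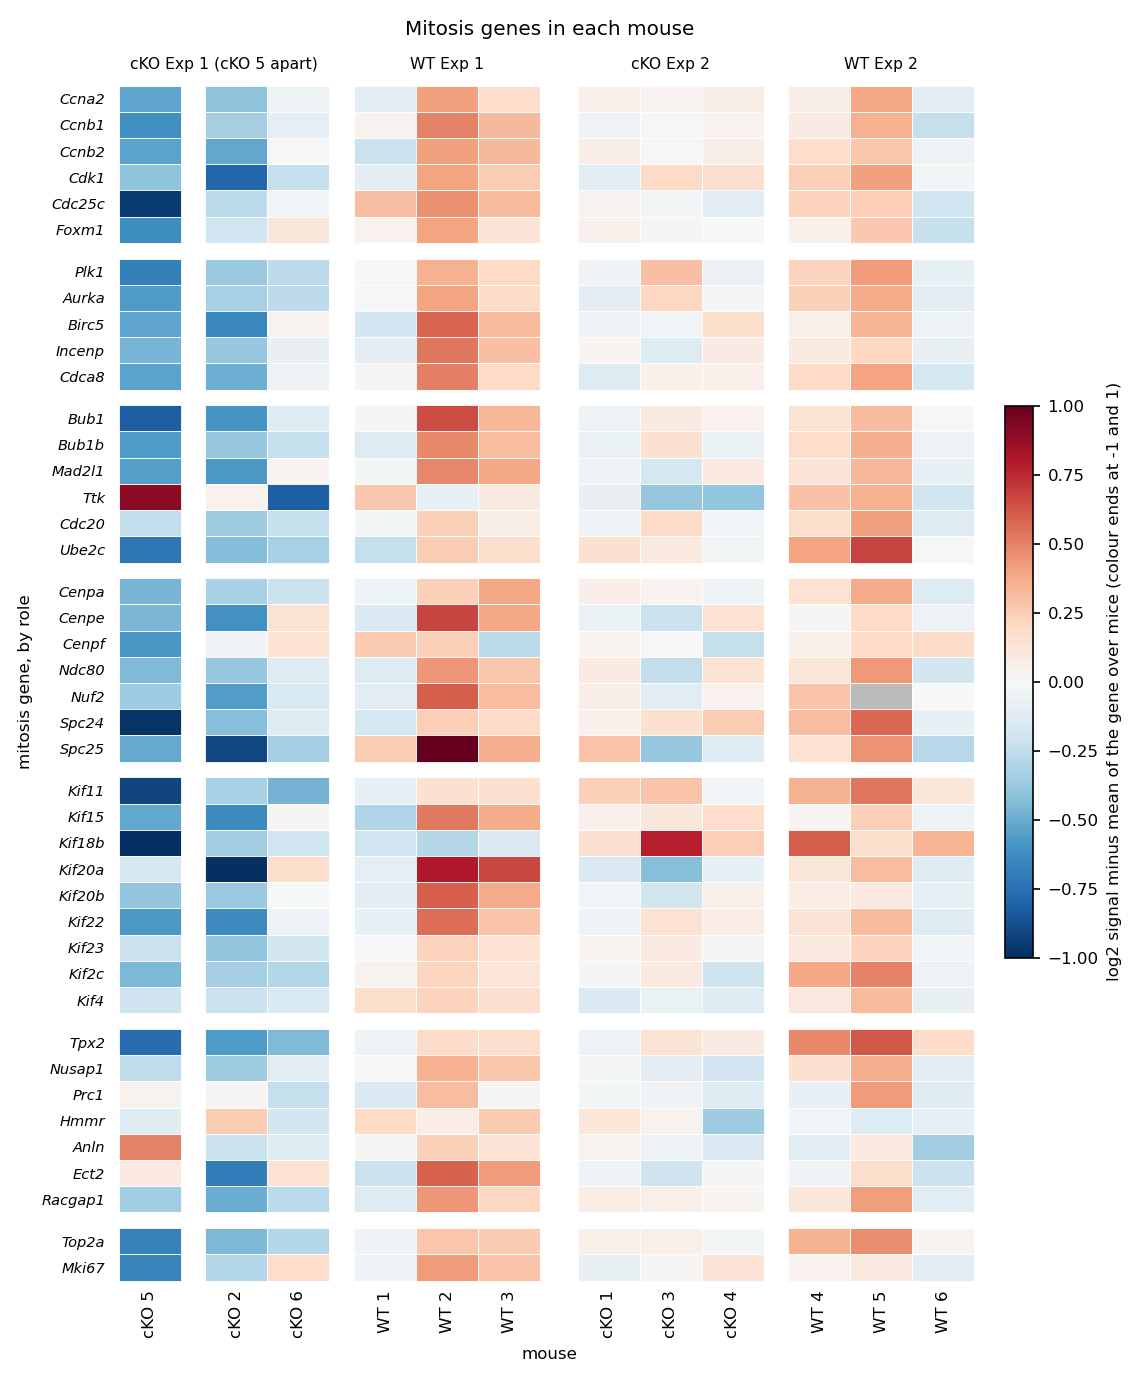
Log2 level of each tested mitosis gene minus its mean over the mice (colour, blue below and red above), with genes in rows by role and mice in columns. The column of cKO mouse 5 is set apart within Exp 1 cKO, and grey is the missing Nuf2 value; most cells of cKO mice 5 and 2 are blue, and most of WT mice 2 and 5 are red.

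In Exp 1, the older mice, all 42 members had a lower mean in cKO skin (52.5% of all genes were), by a median of -0.56, or 1.47-fold, beside -0.02 for all genes. No member passed the adjusted threshold (0.105% of all genes were called lower and 0.0124% higher, and the smallest member adjusted p by limma was 0.142), while 34 of 42 had an unadjusted p under 0.05 and a lower mean, beside 7.04% of all genes, and none a higher mean, beside 4.26%. For 20 of 41 members every cKO level lay below every WT level, beside 7.20% of all genes. Without cKO mouse 5 the median was -0.48, 42 of 42 were lower, 25 had an unadjusted p under 0.05 (beside 5.40% of all genes lower) and 21 of 41 did not overlap, beside 11.7% of all genes. Within slide 1, with cKO mice 2 and 6 and WT mice 2 and 3, the median was -0.61, beside -0.04 for all genes. Within slide 2 it was -0.41, beside 0.04 for all genes. Slide 2 held only cKO mouse 5 and WT mouse 1 of Exp 1, so its value rests on the array that stood apart.

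In Exp 2, the younger mice, lower means were found for 37 of 42 members (64.0% of all genes), with a median of -0.13 beside -0.07 for all genes. No member was called by limma (0.0556% of all genes were called lower), and Tpx2 was the 1 member with an unadjusted p under 0.05 (3.35% of all genes were lower at that level and 1.31% higher). Levels did not overlap for 2 of 41 members, Tpx2 and Cenpf, beside 9.88% of all genes. Kif15, Kif18b, Hmmr, Anln and Mki67 had higher means by at most 0.07, and all 5 turned negative when arrays were scaled to their median, a scaling that moved the median of all genes in Exp 2 to -0.21. The fitted Exp 1 difference lay inside the Exp 2 interval for 18 of 42 members. That interval leaves out the error of the Exp 1 difference, and no share of all genes stands beside the count. It is therefore no test of a difference between the experiments.

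The difference between the experiments was tested directly. Of 42 members, 40 had a more negative genotype difference in Exp 1 than in Exp 2 (45.2% of all genes did), with a median of -0.44 beside 0.03 for all genes. No member was called by limma (0.00618% of all genes were called lower), and 2 members had an unadjusted p under 0.05, beside 0.976% of all genes. These were Bub1, with a difference of -0.72, and Spc25, with -0.95. With 1 mouse left out, the count was 0 without WT mouse 2 or WT mouse 6, 19 without WT mouse 1 (beside 1.93% of all genes), 16 without cKO mouse 6 (3.66%), 9 without WT mouse 5 (0.927%) and 1 without each of the other 7 mice.

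**Figure D2:**
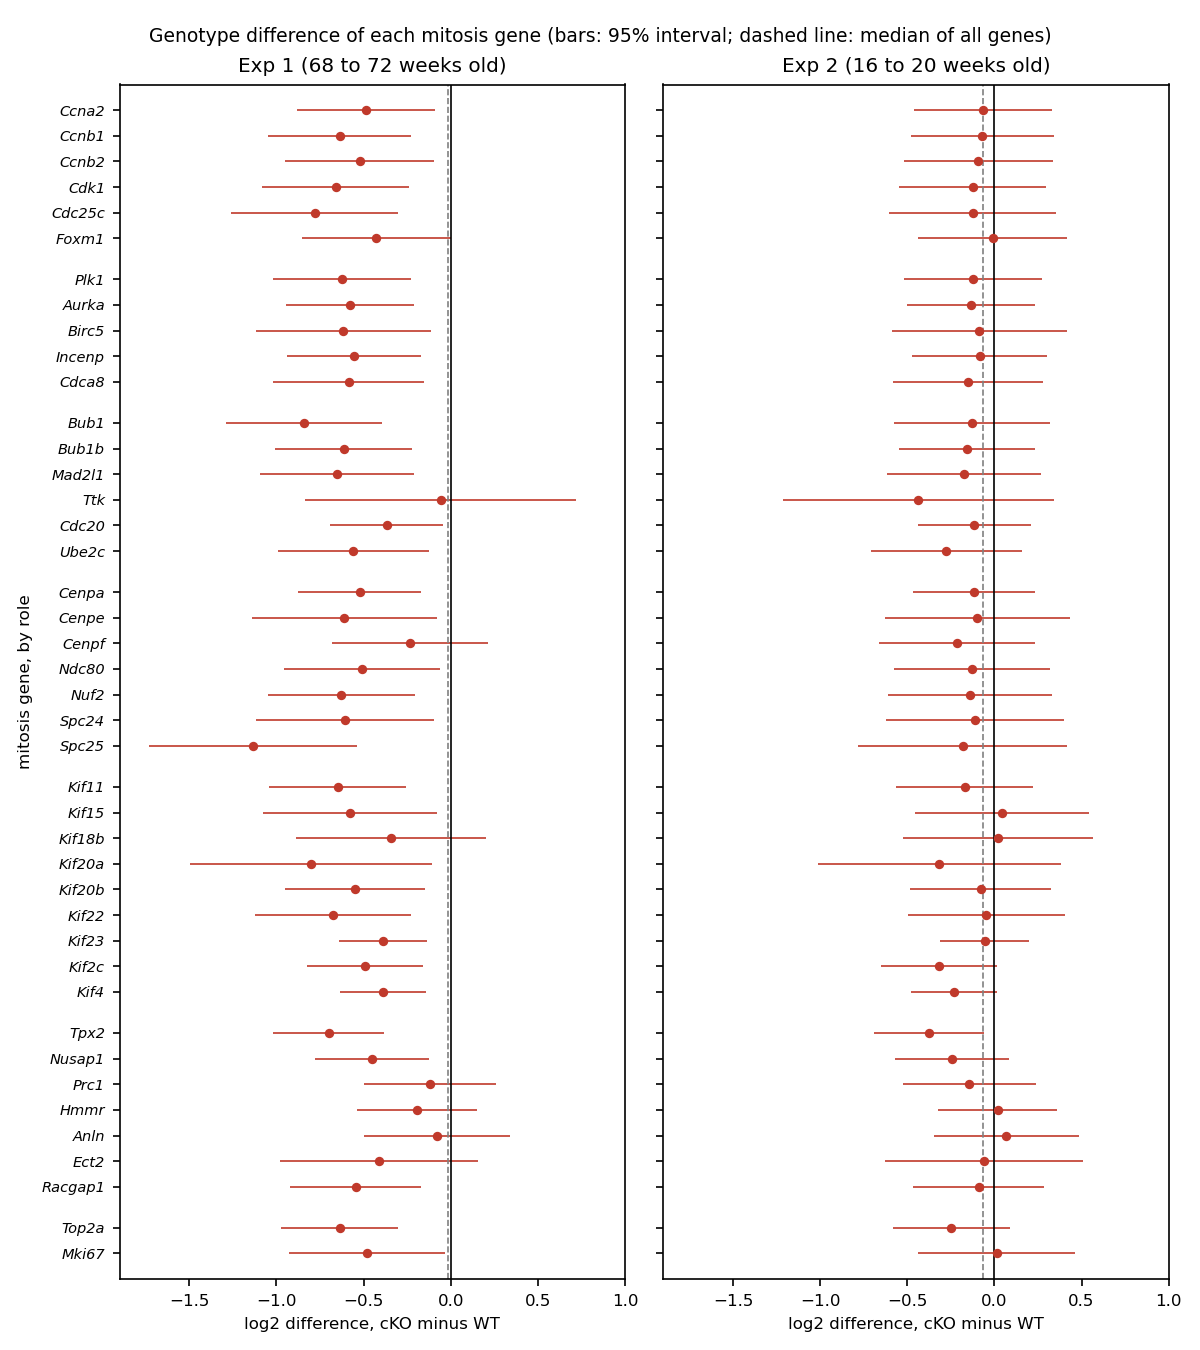
Log2 difference between cKO and WT means for each mitosis gene in Exp 1 (left) and Exp 2 (right), with 95% intervals from limma and the median of all genes as a dashed line. All 42 points lie below 0 in Exp 1 and 37 of 42 in Exp 2.

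Among the 6 genes that open mitosis, the median difference was -0.58 in Exp 1 and -0.08 in Exp 2, and 5 of 6 had an unadjusted p under 0.05 in Exp 1. Cdc25c encodes a phosphatase that removes inhibitory phosphates from Cdk1. Its level was -1.81, -2.50 and -1.58 in Exp 1 cKO mice 2, 5 and 6, against -1.25, -1.09 and -1.23 in WT mice 1, 2 and 3. In Exp 2 Cdc25c was -1.51, -1.57 and -1.66 in cKO mice 1, 3 and 4, against -1.32, -1.30 and -1.75 in WT mice 4, 5 and 6. The groups were separate in Exp 1 and overlapped in Exp 2. The Exp 1 difference was -0.78 ± 0.22 (limma adjusted p = 0.252), and -0.51 without cKO mouse 5.

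Cyclin B1 and its kinase had differences of like size. Ccnb1 was 1.94, 1.67 and 2.18 in Exp 1 cKO skin (mice 2, 5, 6) and 2.32, 2.78 and 2.61 in Exp 1 WT skin (mice 1, 2, 3), a difference of -0.64 ± 0.19. Cdk1 was -0.11, 0.28 and 0.44 in Exp 1 cKO skin and 0.58, 1.09 and 0.94 in Exp 1 WT skin, a difference of -0.66 ± 0.19. Neither pair of Exp 1 groups overlapped, and both genes had an Exp 1 adjusted p above 0.05 by limma (0.269 and 0.263). In Exp 2 Ccnb1 was 2.23, 2.29 and 2.32 in cKO skin, against 2.37, 2.64 and 2.04 in WT skin. Cdk1 in Exp 2 was 0.575, 0.88 and 0.86 in cKO skin, against 0.94, 1.10 and 0.66 in WT skin. Both pairs overlapped in Exp 2, with differences of -0.07 ± 0.19 for Ccnb1 and -0.13 ± 0.19 for Cdk1. Foxm1, a transcription factor that drives late cell cycle genes, was 0.04, -0.39 and 0.35 in Exp 1 cKO skin, against 0.28, 0.63 and 0.37 in Exp 1 WT skin. In Exp 2 Foxm1 was 0.29, 0.24 and 0.23 in cKO skin (mice 1, 3, 4), against 0.29, 0.50 and 0.00 in WT skin (mice 4, 5, 6). Its groups overlapped in both experiments, and its Exp 1 difference was -0.43 ± 0.19 with cKO mouse 5 and -0.23 without that mouse. Ccna2 and Ccnb2, the other mitotic cyclins, had Exp 1 differences of -0.49 and -0.52.

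The mitotic kinases and the chromosomal passenger complex, which corrects faulty attachments and guides cytokinesis, spanned a narrow range. The 5 tested members had averaged differences between -0.37 and -0.32, Exp 1 differences between -0.62 and -0.56 and Exp 2 differences between -0.15 and -0.09. Aurka, the kinase of spindle poles, was 1.42, 1.18 and 1.49 in Exp 1 cKO skin, against 1.74, 2.15 and 1.94 in Exp 1 WT skin. In Exp 2 Aurka was 1.64, 1.97 and 1.73 in cKO skin, against 1.99, 2.12 and 1.64 in WT skin. The Exp 1 groups were separate, with a difference of -0.58 ± 0.17 (limma adjusted p = 0.262), and the Exp 2 groups overlapped. Birc5 (survivin), a subunit of the passenger complex, was 3.33, 3.44 and 4.01 in Exp 1 cKO skin, against 3.79, 4.56 and 4.29 in Exp 1 WT skin, and these groups overlapped through cKO mouse 6. In Exp 2 Birc5 was 3.91, 3.94 and 4.15 in cKO skin, against 4.03, 4.31 and 3.91 in WT skin. Plk1, Incenp and Cdca8 had Exp 1 differences of -0.62, -0.56 and -0.58.

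The spindle checkpoint and the ubiquitin machinery that ends it held both a large and the most scattered difference. Bub1, a checkpoint kinase at kinetochores, was -1.36, -1.60 and -0.89 in Exp 1 cKO skin, against -0.76, -0.12 and -0.44 in Exp 1 WT skin. In Exp 2 Bub1 was -0.82, -0.68 and -0.73 in cKO skin, against -0.63, -0.46 and -0.77 in WT skin. Its groups were separate in Exp 1 (difference -0.84 ± 0.20, limma adjusted p = 0.184) and overlapped in Exp 2 (difference -0.13 [-0.58 to 0.32]). Ttk (Mps1), the kinase that starts checkpoint signalling, was -2.51, -1.66 and -3.38 in Exp 1 cKO skin, against -2.28, -2.64 and -2.45 in Exp 1 WT skin. In Exp 2 Ttk was -2.63, -2.94 and -2.95 in cKO skin, against -2.26, -2.20 and -2.74 in WT skin. Of the 3 Exp 1 cKO mice, mouse 5 had the highest Ttk level of all 12 mice and mouse 6 the lowest, and the Exp 1 difference was -0.06 with mouse 5 and -0.49 without it. Bub1b and Mad2l1, further checkpoint components, had Exp 1 differences of -0.62 and -0.65. Cdc20, which activates the anaphase-promoting complex, and Ube2c, a ubiquitin-conjugating enzyme that works with it, had -0.37 and -0.56.

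**Figure D3:**
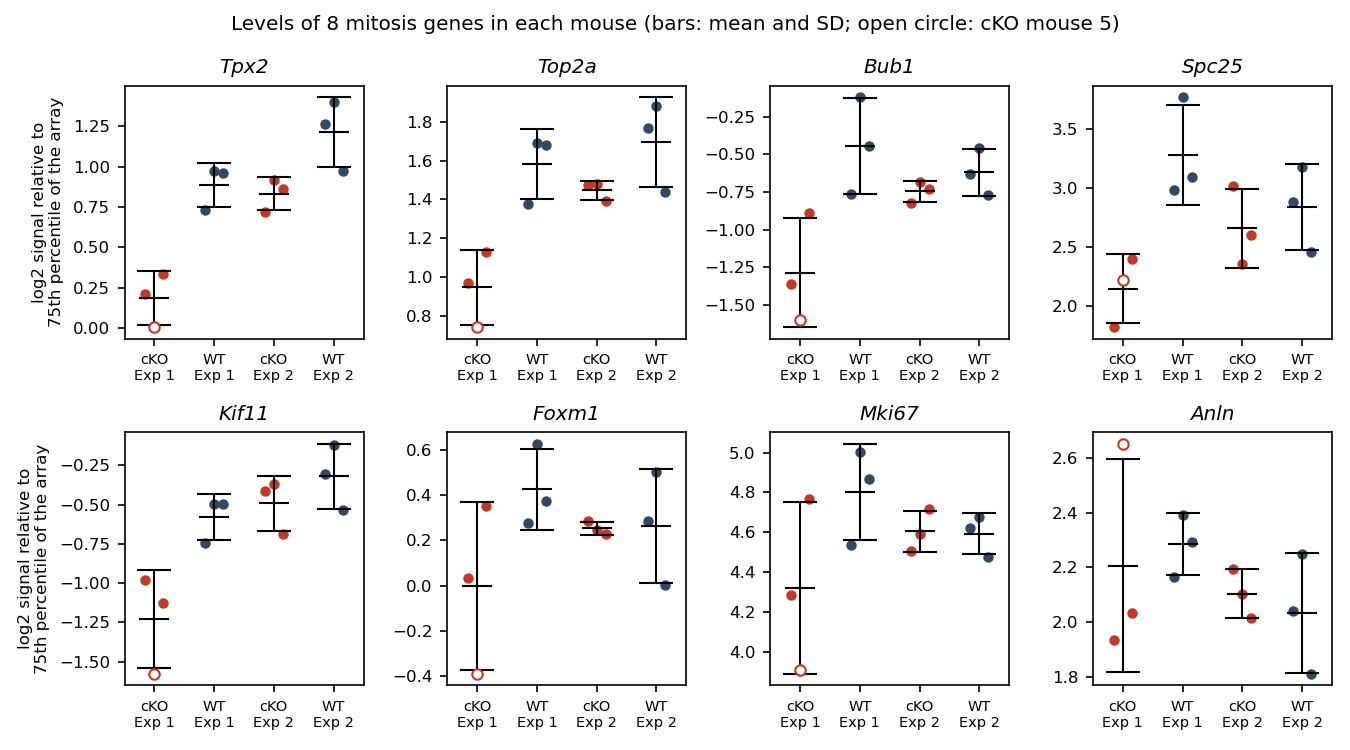
Log2 level, as in the text, for 8 mitosis genes in each mouse, with cKO left of WT in each experiment, black bars for the mean and SD (n = 3) and an open circle for cKO mouse 5. For Tpx2, Top2a, Bub1, Spc25 and Kif11 the Exp 1 cKO and WT mice do not overlap, and for Foxm1, Mki67 and Anln they do.

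Kinetochore genes included the largest difference among the members. Spc25, a subunit of the Ndc80 complex that grips microtubules, was 1.82, 2.22 and 2.40 in Exp 1 cKO skin, against 2.98, 3.77 and 3.09 in Exp 1 WT skin. In Exp 2 Spc25 was 3.02, 2.36 and 2.60 in cKO skin, against 2.88, 3.18 and 2.46 in WT skin. The groups were separate in Exp 1, where the difference was -1.13 ± 0.27 or 2.20-fold lower (limma adjusted p = 0.184), and overlapped in Exp 2, where it was -0.18 [-0.78 to 0.42]. The other subunits of that complex had smaller Exp 1 differences: Ndc80 -0.51, Nuf2 -0.63 and Spc24 -0.60. The Nuf2 spot of WT mouse 5 was marked as an outlier by the scanner software and left out of its fit. Cenpf, a large kinetochore protein, lay near background at -4.38, -4.92 and -4.19 in Exp 1 cKO skin, against -4.08, -4.10 and -4.61 in Exp 1 WT skin, and in Exp 2 at -4.32, -4.34 and -4.58 in cKO skin, against -4.30, -4.15 and -4.15 in WT skin. It was well above background on 6 of 12 arrays, and its separate groups in Exp 2 differed by -0.21 ± 0.20. Cenpa, the histone that marks centromeres, and Cenpe, a kinetochore motor, had Exp 1 differences of -0.52 and -0.61.

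The 9 kinesins, motors that build the spindle and move chromosomes, had a median difference of -0.55 in Exp 1 and -0.08 in Exp 2. Kif4, a chromosome-bound motor needed for condensation and the midzone, had narrow groups in Exp 1. It was -0.92, -0.91 and -0.87 in Exp 1 cKO skin, against -0.53, -0.48 and -0.54 in Exp 1 WT skin. In Exp 2 Kif4 was -0.85, -0.78 and -0.85 in cKO skin, against -0.61, -0.39 and -0.78 in WT skin. The groups were separate in Exp 1, with a difference of -0.39 ± 0.11 (limma adjusted p = 0.262), and met in Exp 2, with -0.23 [-0.48 to 0.01]. The averaged difference of Kif4 was -0.31 ± 0.08 (adjusted p = 0.146), and that of Kif2c, which takes microtubules apart, was -0.40 ± 0.11 (adjusted p = 0.159). Kif20a, a motor of cytokinesis, had a large Exp 1 difference (-0.80 ± 0.31) but overlapping groups.

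Kif11 (Eg5), which pushes spindle poles apart, and Kif18b, a motor at growing microtubule ends, differed between the ages within cKO, as given below. Kif11 was -0.98, -1.58 and -1.13 in Exp 1 cKO skin and -0.75, -0.50 and -0.49 in Exp 1 WT skin. In Exp 2 Kif11 was -0.42, -0.37 and -0.69 in cKO skin and -0.31, -0.12 and -0.53 in WT skin. All Exp 1 cKO mice lay below the other 9 mice. Kif18b was -1.48, -2.26 and -1.34 in Exp 1 cKO skin and -1.34, -1.42 and -1.29 in Exp 1 WT skin. In Exp 2 Kif18b was -0.98, -0.36 and -0.89 in cKO skin and -0.53, -0.96 and -0.80 in WT skin. Both genotypes had lower Kif18b levels in Exp 1, and between cKO and WT it differed by -0.34 ± 0.25 in Exp 1, or -0.06 without cKO mouse 5, and by 0.02 in Exp 2.

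Spindle assembly and cytokinesis genes had the smallest median of the lists of members in Exp 1, -0.41, with 3 of 7 members at an unadjusted p under 0.05. Anln (anillin), a scaffold of the contractile ring, was 1.94, 2.65 and 2.03 in Exp 1 cKO skin, against 2.17, 2.39 and 2.29 in Exp 1 WT skin. In Exp 2 Anln was 2.19, 2.10 and 2.01 in cKO skin, against 2.04, 2.25 and 1.81 in WT skin. The level of cKO mouse 5 was the highest of all 12, the groups overlapped in both experiments, and the Exp 1 difference was -0.08 with this mouse and -0.30 without it. Prc1, which bundles midzone microtubules, Hmmr, a spindle pole protein, and Ect2, which activates RhoA for the contractile ring, had Exp 1 differences of -0.12, -0.19 and -0.41, whose intervals all included 0. Nusap1 and Racgap1, of the spindle and the midzone, had -0.45 and -0.55.

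Top2a, the topoisomerase that untangles chromosomes, was 0.97, 0.74 and 1.13 in Exp 1 cKO skin, against 1.38, 1.69 and 1.68 in Exp 1 WT skin. In Exp 2 Top2a was 1.47, 1.48 and 1.39 in cKO skin, against 1.77, 1.88 and 1.44 in WT skin. The Exp 1 groups were separate (difference -0.64 ± 0.15, limma adjusted p = 0.184), and the averaged difference of -0.44 ± 0.11 had an adjusted p of 0.131. Mki67, the proliferation marker that coats mitotic chromosomes, was 4.29, 3.91 and 4.77 in Exp 1 cKO skin, against 4.54, 5.00 and 4.87 in Exp 1 WT skin. In Exp 2 Mki67 was 4.51, 4.59 and 4.72 in cKO skin, against 4.62, 4.68 and 4.48 in WT skin. Its groups overlapped in both experiments, and its Exp 1 difference of -0.48 became -0.28 without cKO mouse 5.

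The study also allows the older mice to be set against the younger ones within a genotype, with experiment and age confounded. In cKO skin 38 of 42 members were lower in Exp 1 than in Exp 2 (47.1% of all genes), with a median of -0.35 beside 0.03 for all genes. Kif11 (-0.74 ± 0.18, adjusted p = 0.033), Kif18b (-0.95 ± 0.25, adjusted p = 0.0396) and Tpx2 (-0.65 ± 0.14, adjusted p = 0.0268) were lower in Exp 1 by limma, 3 of 42 members, beside 4.60% of all genes called lower and 5.37% higher. All 3 Exp 1 cKO mice lay below all 3 Exp 2 cKO mice for each of the 3 genes. At an unadjusted p under 0.05, 14 members were lower, beside 12.4% of all genes, and 22 of 41 members did not overlap, beside 13.8%. Without cKO mouse 5 no member passed (smallest adjusted p by limma 0.064) and 6 were lower at an unadjusted p under 0.05, beside 10.1% of all genes. No member passed without cKO mouse 1, 3 or 4 either, while Tpx2 or Kif11 alone passed without WT mouse 4 or cKO mouse 2 and 6 members passed without cKO mouse 6. These calls with a mouse left out have no share of all genes beside them and do not show a trait of the members. With slide as a block no member passed, and within slide 1 and slide 2 the medians were -0.28 and -0.58. Slide 1 set cKO mice 2 and 6 against mouse 1, and slide 2 set mouse 5 alone against mouse 4.

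In WT skin the same comparison gave a median of 0.07 beside -0.01 for all genes, and 13 of 42 members were lower in Exp 1 (51.5% of all genes). No member was called by limma (0.470% of all genes were called lower, 0.371% higher), and Tpx2 and Kif18b were the 2 with an unadjusted p under 0.05, both lower, beside 9.54% of all genes lower and 8.93% higher. The 2 members that were entirely lower in Exp 1 were the same genes, beside 13.4% of all genes. Another 2 members were entirely higher in Exp 1, beside 14.5% of all genes. The interaction given above is also the test of the difference between both age comparisons, and no member was called in it.

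The members varied together across mice. The median deviation of the 42 members from the mean of each gene was -0.39, -0.52 and -0.13 in Exp 1 cKO mice 2, 5 and 6, against -0.05, 0.40 and 0.26 in Exp 1 WT mice 1, 2 and 3. In Exp 2 it was -0.02, 0.02 and 0.00 in cKO mice 1, 3 and 4, against 0.14, 0.36 and -0.09 in WT mice 4, 5 and 6. The cKO mice of Exp 1 were lower than every WT mouse, whereas those of Exp 2 lay inside the WT range. Of 41 members measured in every mouse, 23 had their lowest level in cKO mouse 5 and 14 in cKO mouse 2, and 22 had their highest level in WT mouse 2 and 13 in WT mouse 5. No share of all genes stands beside these counts, so they do not show a trait of the members. The array of cKO mouse 5 also had the lowest share of probes well above background (53.9%). After group means were removed, 61% of the variance of the members lay on their first principal component, against 28.3% for all genes, as a description of these arrays.

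**Figure D4:**
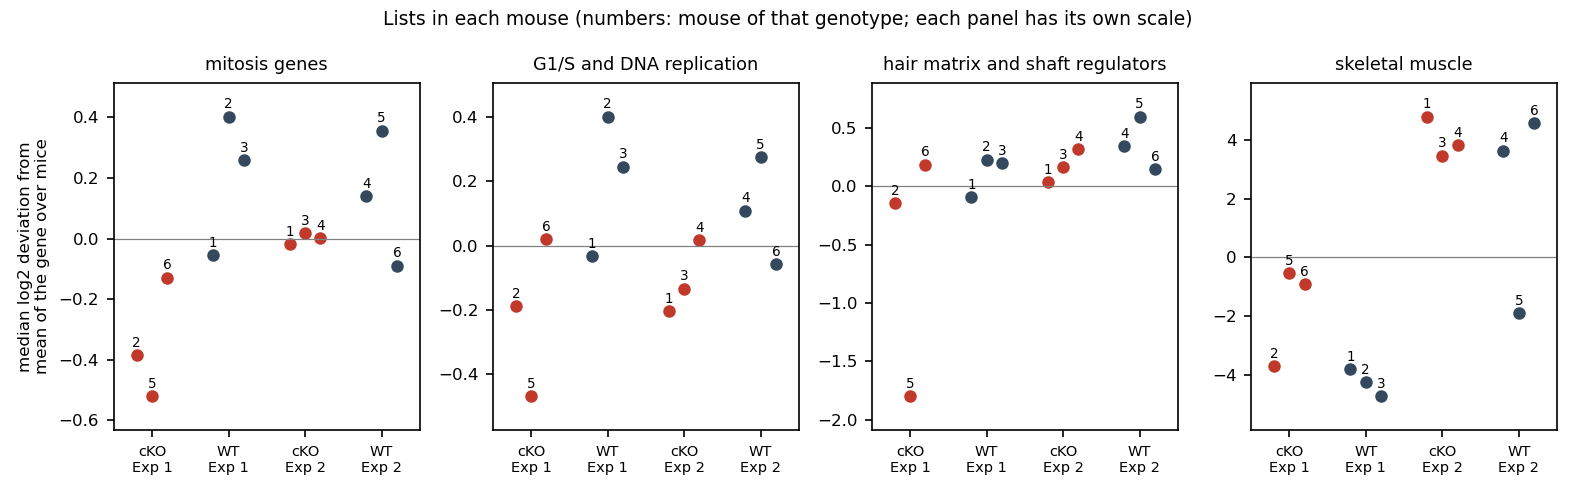
Median log2 deviation from the mean of each gene over all mice, for the mitosis genes, the replication genes, the hair matrix genes and the muscle genes, with each mouse as a numbered point, cKO left of WT. Mice 5 and 2 are the lowest cKO mice for mitosis genes, mouse 5 alone is far below the rest for hair matrix genes, and the muscle panel splits the experiments except for WT mouse 5.

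Several marker lists of other cell types had medians away from 0 in the same comparisons as the mitosis genes. Others lay near 0: the 10 fibroblast and collagen genes had -0.015 averaged and -0.08 in Exp 1, and the 10 endothelial genes 0.07 and 0.09. The 13 hair matrix genes had a median difference of -0.46 between cKO and WT averaged over experiments, all 13 lower and 0 called. Their median deviation in Exp 1 was -0.15, -1.80 and 0.19 in cKO mice 2, 5 and 6, against -0.09, 0.23 and 0.20 in WT mice 1, 2 and 3. In Exp 2 it was 0.03, 0.16 and 0.32 in cKO mice 1, 3 and 4, against 0.35, 0.60 and 0.15 in WT mice 4, 5 and 6. The level of cKO mouse 5 was far below the others, and cKO mouse 2 also lay below every WT mouse. With the hair matrix list mean as a covariate the member median was -0.25 averaged and -0.41 in Exp 1, with 14 members (beside 6.77% of all genes) and 20 members (beside 4.52%) lower at an unadjusted p under 0.05. The 22 muscle genes had a median of 2.24 between cKO and WT, all higher and 0 called, and with their mean as a covariate the member median was -0.24 averaged and -0.43 in Exp 1, with 6 members (beside 3.85% of all genes) and 17 members (beside 4.31%) lower at that level. The 8 basal keratinocyte genes had a median of 0.42 in Exp 1, all 8 higher and 0 called. Further Exp 1 medians below 0 were those of 12 melanocyte genes (-1.46, 11 lower), 10 hair shaft keratins (-0.83, 9 lower), 10 adipocyte genes (-0.61, 8 lower), 9 macrophage genes (-0.40, 9 lower), 10 inner root sheath genes (-0.30, 9 lower), 14 dermal papilla genes (-0.25, 11 lower) and 11 lymphocyte genes (-0.24, 7 lower). These medians include cKO mouse 5, and the mean levels of each of these lists overlapped between Exp 1 cKO and WT mice. Melanocyte means were -0.29 to 2.84 in Exp 1 cKO mice and 2.37 to 2.98 in Exp 1 WT mice. Those of hair shaft keratins were 3.87 to 6.78 and 6.21 to 6.88, and those of adipocyte genes 1.23 to 4.01 and 3.20 to 3.97. Medians above 0 were those of 6 mast cell genes (0.52, 6 higher), 9 sebaceous gland genes (0.46, 8 higher) and 9 genes of interfollicular differentiation (0.46, 9 higher, 3 at an unadjusted p under 0.05). None of these genes was called in Exp 1. Of all genes, 52.5% were lower in Exp 1 and 57.7% in the averaged comparison, and 4.26% were higher in Exp 1 at an unadjusted p under 0.05. The part of these lists in the mitosis differences was not tested beyond the covariate values.

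Other genes of cell division gave the members a setting. Of 67 other mitosis genes 66 were tested, and 65 were lower in cKO skin on average, beside 57.7% of all genes, with a median of -0.24. Of the 66, 1 was called, beside 0.389% of all genes called lower. This was Pimreg, a mitosis-linked partner of the clathrin assembly protein Picalm, which fell by 0.57 ± 0.09 (limma adjusted p = 0.0345). Pimreg was -0.92, -0.90 and -0.91 in Exp 1 cKO skin and -0.26, -0.09 and -0.44 in Exp 1 WT skin, and -0.77, -0.75 and -0.97 in Exp 2 cKO skin and -0.19, -0.25 and -0.56 in Exp 2 WT skin. All 6 cKO levels lay below all 6 WT levels, which no tested member showed. Ska3 (-0.42, adjusted p = 0.138), of the outer kinetochore, Fbxo5 (-0.41, adjusted p = 0.159), an inhibitor of the anaphase-promoting complex, and Mis18a (-0.32, adjusted p = 0.191), which loads Cenpa, did not pass.

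Genes of earlier steps of the cell cycle were measured too. The 40 tested genes of G1/S and DNA replication had a median of -0.31 averaged, -0.44 in Exp 1 and -0.21 in Exp 2. In the averaged comparison 38 of 40 were lower, beside 57.7% of all genes, and none was called. At an unadjusted p under 0.05, 19 were lower, beside 8.74% of all genes. Mcm7, of the replicative helicase, had -0.59 ± 0.11 (limma adjusted p = 0.0568), and Mcm3 (-0.52, adjusted p = 0.150), Chaf1b, which assembles chromatin on new DNA (-0.48, adjusted p = 0.201), and Rrm1, of nucleotide synthesis (-0.37, adjusted p = 0.234), did not pass. Among 9 G1 cyclins and kinases Cdk4, the kinase of cyclin D, fell by 0.62 ± 0.11 (adjusted p = 0.0406). Cdk4 was 4.64, 4.40 and 4.69 in Exp 1 cKO skin and 5.06, 5.42 and 5.17 in Exp 1 WT skin, and 4.66, 4.92 and 4.88 in Exp 2 cKO skin and 5.47, 5.59 and 5.20 in Exp 2 WT skin. All its cKO levels were below all WT levels. Cyclin D1 (Ccnd1, -0.38), Mycn (-0.58) and Cdk7 (-0.15) did not pass.

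Condensin and cohesin (16 genes) had a median of -0.12, with Ncapd2 at -0.47 and Ncaph at -0.40, both of condensin I, then Smc2 at -0.24 and Stag1 at -0.18, and 0 of 16 called. The core of the anaphase-promoting complex (16 genes) had -0.19, with Anapc4 at -0.37, Cdc26 at -0.29, Cdc16 at -0.24 and Anapc15 at -0.24, and 0 of 16 called. The 16 regulators of mitosis gene promoters, which include NF-Y, MuvB and B-Myb genes, had a median of -0.09, with Rbbp4 at -0.37, E2f7 at -0.38, Lin9 at -0.35 and Tfdp1 at -0.21, and 0 of 16 called. In the averaged comparison the 16 cell cycle brakes had a median of 0 and 0 of 16 called: p53 (Trp53) -0.44, Cdkn1c -0.39, Cdkn2a -1.08 and Rbl2 0.40. The lowest difference of any brake was -0.61 in Exp 1 and -2.35 in Exp 2, so the averaged Cdkn2a value rested more on Exp 2 than on Exp 1. Between the ages in cKO, 1 brake was called lower and 1 higher by limma, beside 4.60% and 5.37% of all genes. These lists are described by counts and medians, of the averaged comparison unless stated, and none was tested as a list against the members.

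**Figure D5:**
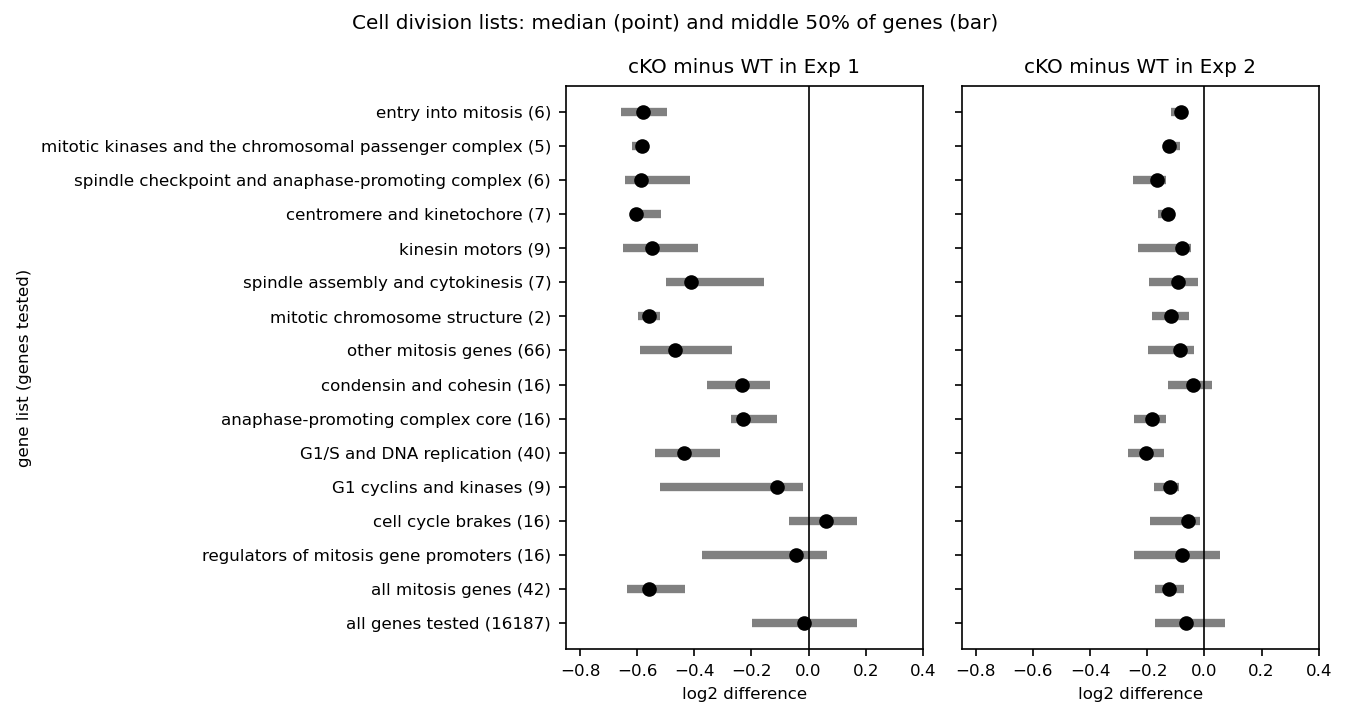
Median (point) and middle 50% (bar) of the log2 differences between cKO and WT for each list, with the number of genes tested beside its name, in Exp 1 (left) and Exp 2 (right). The lists of members lie between -0.60 and -0.41 in Exp 1, a range that also holds the medians of the other mitosis genes and the replication genes, and between -0.17 and -0.08 in Exp 2.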

How the data were processed

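One-colour arrays of 12 skin samples were used. The processed signal of each spot is, per the file headers, an intensity with background subtracted by Feature Extraction 11.5.1.1, beside 0 or 1 flags for background, saturation and outliers. The authors also deposited a table of log2 values per probe. The submitters' processing notes name limma, and the sources used here give no background correction or normalization for it. That table served as an alternative only.

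Outlier spots were left out, log2 signals were averaged per probe, and each array was lowered by its 75th percentile; 90 probe values were missing. RefSeq transcripts named 27503 of 55681 probes. Probes above background on at least 3 arrays were kept, the brightest per gene, and 24 genes had a missing value. Genes were fitted as 4 group means in R 4.3.3 with limma 3.58.1 (8 residual and 2.3 prior degrees of freedom), after a test on simulated data. Tests were two-sided. Nothing in the labels says more of the replicates than that each is a mouse. Of 12 members with several kept probes, all 15 other probes had the same sign in the averaged and the Exp 1 comparison. The alternative background correction (normexp, offset 50) used median spot intensities, because the files hold no mean signal. Promoter motifs were counted by exact match.

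Members and lists were chosen with earlier results of these data known. Genes with values in every mouse were, in each role, those with the smallest and the largest p, plus Foxm1, Mki67, Tpx2 and Top2a; Ccnb1, Cdk1 and Kif11 were added after their values were seen.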

Additional observations from a re-analysis of the deposited data

How the results depend on the processing

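Between 0 and 1 member was called for the averaged genotype difference, and 0 in Exp 1, in Exp 2, in the interaction and between the ages in WT, under every alternative run. The 1 was Tpx2, with normexp and quantile normalization (adjusted p = 0.0276), with probes above background on all 12 arrays (0.0466), with trend and robust moderation (0.0379), without WT mouse 6 (0.043) and without cKO mouse 6 (0.0477). For Exp 1 against Exp 2 in cKO, 3 were called, beside 4.60% of all genes called lower and 5.37% higher. The count was 1 with median scaling, 5 with normexp and quantile normalization, and 0 with the authors' value table, slide as a block, slide 1 alone, the array-name tag, or the muscle or hair matrix list as a covariate. No share of all genes stands beside these alternative counts or those given below for this comparison, so they do not show a trait of the members. Of the member medians, that of Exp 2 (-0.125) was -0.503 with the authors' value table, -0.358 in slide 1, -0.263 with median scaling, -0.08 with the hair matrix covariate, -0.072 with the tag, -0.057 with normexp, -0.038 with the muscle covariate, -0.037 in slide 2 and 0.046, of the other sign, with the replicate block. That of the interaction was 0.029 with the authors' value table. That of the ages in cKO was 0.104 with the authors' value table, -0.58 in slide 2 and -0.625 with the muscle covariate, and that of the ages in WT was -0.191 with the muscle covariate. In Exp 2 the array-name tag was P1 for every cKO array and P2 for every WT array. Tag and genotype cannot be told apart there, so values with the tag that draw on Exp 2 rest on tag differences within Exp 1. Slide 2 held 1 cKO mouse per experiment, mice 5 and 4, and the Exp 2 mice of slide 1 were cKO mouse 1 and WT mouse 5. Both covariates, and the authors' table with the column of cKO mouse 1 dropped, were chosen after seeing the data; without that column, the Exp 2 median was -0.076, the interaction median -0.404, the cKO age median -0.285 and the count of calls 2. Across probes that column correlated at 0.933 with the scanner signal of its own array and at 0.9402 with that of cKO mouse 5, so values with the full table do not show an effect of processing alone. The columns of WT mouse 6 (0.9533 and 0.9541) and cKO mouse 2 (0.9563 and 0.9594) were also slightly closer to another array than to their own. The cause was not tested. At an unadjusted p under 0.05, 2 members were lower in the interaction, beside 0.976% of all genes, against 14 with normexp, beside 1.06%. The count was 0 with median scaling (beside 0.470% of all genes), the authors' table (0.587%) or the replicate block (1.62%). Over all genes, 68 were called in the averaged comparison, against 19 with the authors' table (37 with that column dropped), 31 with the tag, 45 with no filter, 473 within slide 2 (1 residual degree of freedom) and 11 with the muscle covariate. With 1 mouse left out, between 31 and 120 genes were called, the member medians lay between -0.411 and -0.289 averaged, -0.712 and -0.435 in Exp 1, -0.25 and -0.022 in Exp 2, -0.575 and -0.319 in the interaction, -0.481 and -0.278 for the ages in cKO and -0.049 and 0.22 for those in WT, and the members called between the ages in cKO numbered 0 to 6. Replicate numbers were not taken as pairs of cKO and WT mice, because numbers 1, 3, 5 and 6 join mice of different experiments and ages. The replicate block joins these mice too. The deviations of same-numbered mice correlated at -0.26 to 0.072, and no mouse correlated best with its own number. With 3 mice per group such correlations cannot show whether mice were paired. With the replicate block no member was called, 4 genes in all were called in the averaged comparison, and the cKO age median was -0.553. For the 14 members named by rule in the 3 genotype comparisons, 1023 alternative values kept their sign and their side of the threshold, 61 had the other sign with neither value called, and 5, all of Tpx2, newly passed. Arrays limit the precision by their number.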
